A study of Mus musculus with 6 samples.

Results

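Accessible regions were examined in 2 stretches of the mouse genome, chromosome 9 from 5 to 10 Mb and chromosome 13 from 95 to 100 Mb (build mm10), in granulocyte-monocyte progenitors with low or full GFI1. The members were the consensus peaks with a midpoint in either stretch and a mean of at least 10 normalized reads over the 6 libraries. Of 182166 consensus peaks, 709 were members, 145 on chromosome 9 and 564 on chromosome 13. A further 12 and 29 peaks of the same stretches had lower means and were left out. The windows were chosen by the same GFI1-KD and GFI1-KI values that are given here, because they held many large differences. The differences between the genotypes are therefore a description of the members, without a test, and are set beside the share of all tested peaks.

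The progenitors were sorted by flow cytometry from total bone marrow, the mice being untreated C57BL/6 animals. They were assayed by ATAC-seq: a transposase cuts open DNA and tags it for sequencing, so that reads pile up at accessible sites. In GFI1-KD mice (genotype KD/KD) the human gene is expressed at only 10-20% (per the labels), and in GFI1-KI mice (KI/KI) human GFI1 replaces the murine gene. Both genotypes thus carry human GFI1 in place of the mouse gene. Each was represented by 3 libraries, KD1 to KD3 and KI1 to KI3, and no label states that these came from separate animals. A standard error therefore speaks for variation between libraries only. It is the moderated error of the limma fit, in which the spread of each peak is drawn towards the trend over all tested peaks. Where libraries scattered widely, it is smaller than their own spread would give. Reads in peaks ranged from 16022763 to 19857646 in GFI1-KD and from 19408373 to 27741446 in GFI1-KI, and 1 read was worth 0.7552 to 1.2342 normalized reads. Of 9 progenitor marker genes, 8 had a peak at the gene, among them Mpo, Elane, Ctsg and Cebpa, while Fcgr3 had none. The summed values of the 8 were 11401 to 11933 in GFI1-KD and 11692 to 12162 in GFI1-KI. For markers of other cells, 12 of 14 genes had a peak, with sums of 5133 to 5484 in GFI1-KD and 5874 to 6126 in GFI1-KI, while Hbb-bs and Ncr1 had none. The other-cell sums did not overlap between genotypes, and their part in the differences below was not tested.

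GFI1 is a zinc-finger repressor that binds DNA through an AATC core and recruits the demethylase LSD1, CoREST and histone deacetylases, which close chromatin. In progenitors of granulocytes and monocytes it restrains monocytic genes and favours the neutrophil path. The chromosome 9 stretch carries the cluster of matrix metalloproteinase genes, secreted proteases of connective tissue and of neutrophils and macrophages, beside inflammatory caspases and inhibitors of apoptosis. The chromosome 13 stretch carries Iqgap2, a cytoskeletal scaffold gene, and the protease-activated receptors F2r, F2rl1 and F2rl2, which thrombin and other proteases switch on by cleavage.

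Promoter sequence is shown for 4 genes of the windows, picked after their values were seen because a peak at the start of each differed between the genotypes, in either direction. Each run is the RefSeq promoter window (GRCm38.p6, the mm10 assembly) from 250 bases before to 50 after a start site, 5′ to 3′ on the plus strand. Capitals mark AATC or its reverse complement GATT, the core of the GFI1 site.
Casp4, chr9:5308599-5308898, and Mmp8, chr9:7558179-7558478, lie under peaks that were higher in GFI1-KD.
Casp4: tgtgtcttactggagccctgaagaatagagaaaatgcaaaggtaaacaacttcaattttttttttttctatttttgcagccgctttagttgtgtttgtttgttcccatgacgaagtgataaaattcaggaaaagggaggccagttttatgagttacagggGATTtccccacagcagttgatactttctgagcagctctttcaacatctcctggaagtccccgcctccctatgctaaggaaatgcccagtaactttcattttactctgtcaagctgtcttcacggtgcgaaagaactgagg
Mmp8: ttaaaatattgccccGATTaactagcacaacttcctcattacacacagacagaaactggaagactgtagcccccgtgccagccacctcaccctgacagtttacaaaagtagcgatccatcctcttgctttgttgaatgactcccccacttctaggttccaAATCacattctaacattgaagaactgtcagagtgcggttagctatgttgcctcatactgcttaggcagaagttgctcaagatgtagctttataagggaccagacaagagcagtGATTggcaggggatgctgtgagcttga
Trpc6, chr9:8543892-8544191, and F2rl2, chr13:95696670-95696969, overlap peaks that were lower in GFI1-KD, with the first bases of each window before the start of its peak.
Trpc6: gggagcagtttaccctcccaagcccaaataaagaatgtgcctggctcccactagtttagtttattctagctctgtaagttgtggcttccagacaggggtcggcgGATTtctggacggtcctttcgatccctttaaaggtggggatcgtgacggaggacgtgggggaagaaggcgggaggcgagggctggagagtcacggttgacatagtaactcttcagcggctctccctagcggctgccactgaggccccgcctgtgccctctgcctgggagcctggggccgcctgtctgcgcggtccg
F2rl2: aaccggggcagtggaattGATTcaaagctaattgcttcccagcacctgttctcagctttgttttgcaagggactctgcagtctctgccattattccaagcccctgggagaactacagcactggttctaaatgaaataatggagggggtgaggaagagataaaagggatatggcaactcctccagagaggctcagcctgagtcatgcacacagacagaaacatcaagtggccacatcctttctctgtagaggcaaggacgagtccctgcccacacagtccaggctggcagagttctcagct
The core was found once in the Casp4, Trpc6 and F2rl2 windows and 3 times in that of Mmp8. The F2rl2 core lies before the start of its peak and those of the other windows lie inside theirs. Other genes with a called promoter peak, all lower in GFI1-KD, are not shown. Among these, the windows of Sv2c and Tmem123 held 0 cores, and those of Gcnt4, Pdgfd, Birc2 and Arhgap42 held 1 or 2 each. So short a motif is common: 73.1% of 32817 RefSeq promoter windows held it on either strand. The Mmp8 window also held GAGGAAGT, the PU.1 motif, present in 3.2% of all windows, and TTGCNNAA, a C/EBP motif present in 10.8%. The C/EBP motif was also found in the F2rl2 window, and none of the 4 held the RUNX motif TGTGGT, present in 16.8%. No promoter window in either stretch lay under a peak that differed 4-fold, and the largest differences fell elsewhere.

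Both stretches held a higher share of differing peaks than the genome, and large differences were few in each. A peak is called here when its limma p, adjusted by the Benjamini-Hochberg method over all 170733 tested peaks, was under 0.05, and log2 fold changes are GFI1-KD minus GFI1-KI on the log2(value + 1) scale. On chromosome 9, 38 of 145 members were called, or 26.2%, and on chromosome 13, 91 of 564, or 16.1%, against 10.5% of all tested peaks. Higher in GFI1-KD were 16 members on chromosome 9 and 40 on chromosome 13, against 4.99% of all peaks, and lower were 22 and 51, against 5.48% of all peaks. The balance of directions turned with the scaling of the libraries. With median-of-ratios scaling 23 were higher and 22 lower on chromosome 9, 57 and 50 on chromosome 13, and 11643 and 7868 over all peaks, against 8520 and 9352 with the deposited scaling. Neither direction can be called the more frequent. No GFI1-KD library fell within the range of the GFI1-KI libraries, with all 3 on 1 side of it, in 63 members on chromosome 9 (43.4%) and 203 on chromosome 13 (36.0%), against 28.8% of all peaks. In bulk libraries, fewer cells with an open site and less opening per cell cannot be told apart.

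Called differences of at least 2-fold numbered 20 on chromosome 9 (13.8%), 4 higher and 16 lower in GFI1-KD. On chromosome 13 there were 39 (6.91%), 15 higher and 24 lower, against 2.84% of all tested peaks. Called differences of at least 4-fold numbered 4 on chromosome 9 (2.76%) and 6 on chromosome 13 (1.06%), against 0.162% of all peaks. A peak counts as all-or-none when the lower genotype averaged at most 5 normalized reads and every library of the other held at least 20. There was 1 on chromosome 9, open in GFI1-KI, and 1 on chromosome 13, open in GFI1-KD, and 0.0164% of all tested peaks met this definition. Because the windows were picked for these counts, nothing is read from their excess.

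Set among 506 fixed windows of 5 Mb with at least 20 tested peaks, of which 349 had no 4-fold call, 6 exceeded the chromosome 9 window in the share of 4-fold calls and 23 exceeded the chromosome 13 window. By number of 4-fold calls only 2 windows held more than chromosome 13, which has 112.8 tested peaks per Mb, and 5 held more than chromosome 9, with 29.0 per Mb. Of 2537 tested peaks in the proximal 50 Mb of chromosome 8, 18.2% were called and 1.93% at 4-fold or more. Of 2138 peaks within 10 Mb of Gfi1 on chromosome 5, 12.8% were called and 0.327% at 4-fold or more. The differences between these shares were not tested.

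The calls were not spread evenly within either window. On chromosome 9, the bin from 7 to 8 Mb held 88 tested peaks with 12 called higher and 7 lower, and the bin from 8 to 9 Mb held 25 with 2 called higher and 9 lower. Among the 11 peaks from 9 to 10 Mb, 3 were called, all lower and 2 of them 4-fold. On chromosome 13, the bin from 95 to 96 Mb alone held 40 of the 91 calls (29.4% of its 136 peaks), 23 of the 39 at 2-fold and 4 of the 6 at 4-fold. In the 4 bins from 96 to 100 Mb the share called lay between 9.76% and 14.7%.

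**Figure D1:**
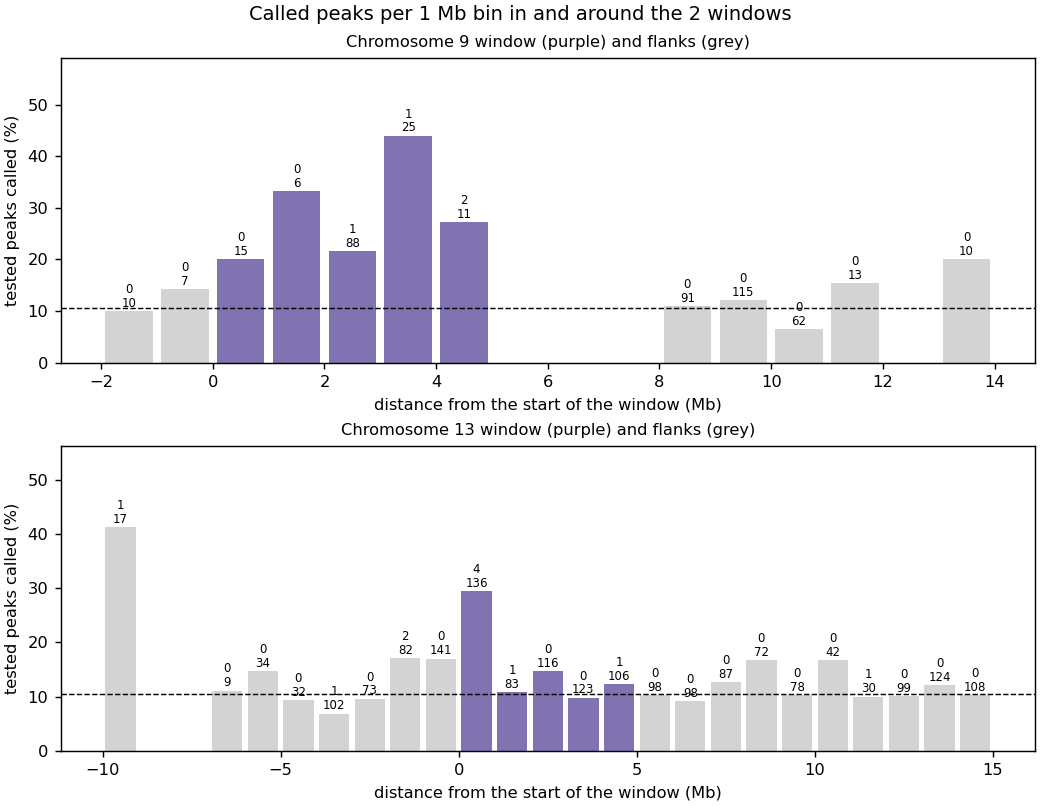
Share of tested peaks called (%, bars) in each 1 Mb bin against distance from the start of the window (Mb), for chromosome 9 (top) and chromosome 13 (bottom). Purple bins are in the window and grey bins flank it, the numbers over a bar are the 4-fold calls (upper) and the tested peaks (lower), bins under 5 tested peaks are not drawn, and the dashed line is the 10.5% of all peaks; the highest window bins are 44.0% on chromosome 9 and 29.4% on chromosome 13.

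**Figure D2:**
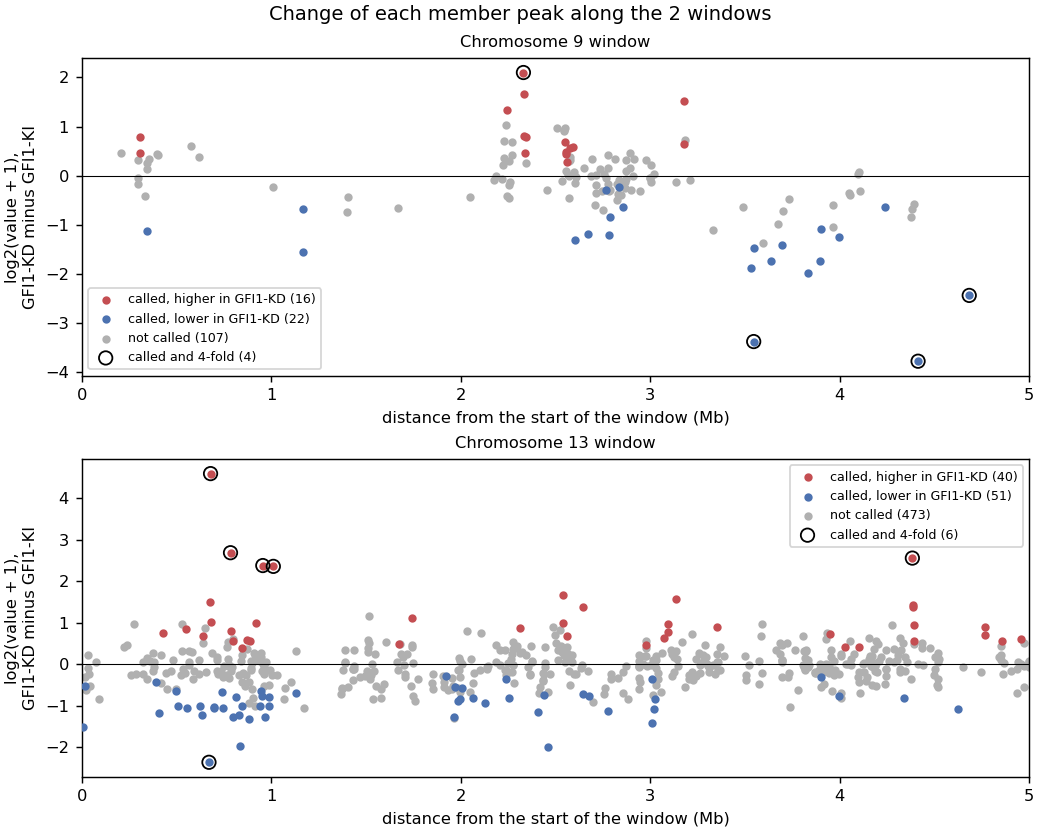
Difference of each member, GFI1-KD minus GFI1-KI on the log2(value + 1) scale, against distance from the start of the window (Mb). Red and blue points are called higher and lower in GFI1-KD, grey points are not called and circles mark called differences of at least 4-fold, 4 on chromosome 9 (top) and 6 on chromosome 13 (bottom).

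On chromosome 9, 11 of the 16 higher calls lay at metalloproteinase genes. Of the 8 metalloproteinase genes with a tested peak there, these calls lay at Mmp12, Mmp8 and Mmp27, and 2 lower calls lay at Mmp27 and Mmp20. Together the 43 peaks of these genes had a median log2 fold change of 0.28 and 30.2% were called, against 26.2% of all 145 members of the window. The other metalloproteinase and inhibitor genes of the genome had 112 tested peaks, a median of -0.07 and 14.3% called, 7 higher and 9 lower. Because the windows were chosen for their differences, a higher share inside them than elsewhere is built in. Nothing is read from it, here or for the caspase, IQGAP and receptor genes below. The median of all tested peaks was -0.05.

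Mmp12 encodes macrophage elastase (chr9:7344397-7360461), and 5 of its 6 peaks rose in GFI1-KD. The strongest lay 13.7 kb outside the gene, chr9:7330496-7330701, with 37.45, 28.39 and 39.92 normalized reads in KD1 to KD3, against 9.01, 5.26 and 8.31 in KI1 to KI3. Each GFI1-KD library stood above each GFI1-KI library, and the log2 fold change was 2.10 ± 0.31 (SE, n = 3 per genotype). A neighbour at chr9:7336123-7336377 held 67.41, 58.01 and 66.53 normalized reads in GFI1-KD and 21.39, 21.91 and 15.86 in GFI1-KI, also without overlap (1.66 ± 0.21). The other 3 called peaks rose by 0.47 to 0.81. At the Mmp12 promoter, by contrast, 42.80, 49.37 and 51.00 normalized reads in GFI1-KD overlapped 41.66, 52.59 and 27.94 in GFI1-KI, and that peak was not called.

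Mmp8 encodes neutrophil collagenase, and its 9 peaks formed an unbroken run of 24.4 kb in which all lay above 0 and 4 were called, with a median log2 fold change of 0.48. Its promoter peak, chr9:7558086-7558587, held 738.29, 628.19 and 704.08 normalized reads in KD1 to KD3, against 606.88, 525.90 and 572.42 in KI1 to KI3. The lowest GFI1-KD library stood above the highest GFI1-KI library by a narrow margin, and the difference was small at 0.28 ± 0.08 (SE). This peak lies over the promoter window that holds 3 GFI1 cores. Upstream, a peak 6.1 kb outside the gene rose by 0.68 ± 0.16.

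Casp4 encodes the inflammatory caspase that senses cytosolic lipopolysaccharide. Its promoter peak, chr9:5308013-5309139, held 591.70, 555.38 and 608.72 normalized reads in GFI1-KD and 471.77, 410.20 and 397.97 in GFI1-KI. All GFI1-KD libraries were higher (log2 fold change 0.46 ± 0.09), and a second peak inside the gene rose by 0.79 ± 0.17. The second peak's call was lost without KI3. Casp12, next to it, had 1 of 6 peaks called, at -1.12 ± 0.21, and Casp1 had 0 of 3. Over the 28 peaks of caspase and inhibitor-of-apoptosis genes in the windows, 2 were higher and 3 lower (17.9% called), against 15.5% of 84 such peaks elsewhere.

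Between the metalloproteinase cluster and Trpc6 the calls were lower in GFI1-KD, apart from those at Cep126, or absent. Birc2 and Birc3, which encode inhibitors of apoptosis, had 1 of 6 and 1 of 10 peaks called, both lower. The Birc2 promoter peak held 1245.47, 1129.27 and 1226.31 normalized reads in GFI1-KD, below the 1417.56, 1378.73 and 1426.52 in GFI1-KI (-0.23 ± 0.06). Tmem123, a membrane protein gene, had 3 of 13 peaks called lower. Yap1, the co-activator of the Hippo pathway, had 8 peaks between -0.31 and 0.34 and none called. Within the metalloproteinase cluster, Mmp13 and Mmp7 had none of 6 called each.

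Distal to these genes the direction turned. From chr9:8208917 to chr9:9051440, 20 consecutive members over 842.5 kb, across Trpc6 and Pgr into Arhgap42, all lay below 0, lower in GFI1-KD, with a median log2 fold change of -1.10 and 9 called. Trpc6, a calcium-permeable cation channel gene (chr9:8543867-8680752), had 5 of 8 peaks called and all 8 below 0. Pgr, the progesterone receptor gene, had 2 of 4 called and all 4 below 0, and Arhgap42, a GTPase-activating protein gene, had 2 of 7 called.

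At the Trpc6 promoter, chr9:8543951-8544919, there were 104.86, 59.24 and 45.46 normalized reads in KD1 to KD3, against 152.00, 283.98 and 141.97 in KI1 to KI3. The genotypes did not overlap, but each was uneven, with KD1 highest in GFI1-KD and KI2 highest in GFI1-KI (-1.47 ± 0.24). Inside the gene, chr9:8545292-8545567 held 1.07, 1.23 and 1.11 normalized reads in GFI1-KD, 1 read in each library, against 9.01, 39.44 and 26.43 in GFI1-KI. On pooled reads, 3 in GFI1-KD and 88 in GFI1-KI, the ratio of GFI1-KD to GFI1-KI was 0.0432 (95% exact interval 0.00874 to 0.13, counting error only). KI1 was well below the other GFI1-KI libraries, and the mean of all 3 was 24.96 ± 15.27 (SD).

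Pgr showed the same unevenness. Its peak at chr9:8900147-8902017 held 353.10, 233.26 and 117.53 normalized reads in GFI1-KD and 448.12, 675.78 and 310.37 in GFI1-KI. KD1 was above KI3, so the genotypes overlapped although the peak was called (-1.09 ± 0.26). The Arhgap42 promoter peak overlapped likewise, with 149.80, 102.44 and 95.36 in GFI1-KD and 185.78, 236.65 and 123.85 in GFI1-KI (-0.63 ± 0.19).

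Farther along lay the only all-or-none member of chromosome 9, chr9:9412526-9412870, with no protein-coding gene within 50 kb. It held 3.21, 4.94 and 0.00 normalized reads in KD1 to KD3, against 47.29, 57.85 and 21.90 in KI1 to KI3. GFI1-KD was at 3, 4 and 0 reads, near the floor of 3 reads, and every GFI1-KI library was clearly above it (-3.78 ± 0.53). The size of this fold rests in part on KD3, which had no read: it was -3.01 without KD3 and -2.59 with a pseudocount of 5. The pooled ratio of GFI1-KD to GFI1-KI was 0.0647 (95% exact interval 0.0255 to 0.137). Inside Cntn5, a neural adhesion gene, chr9:9682435-9682714 held 3.21, 4.94 and 3.33 in GFI1-KD and 34.90, 30.68 and 14.35 in GFI1-KI (-2.44 ± 0.41). These last peaks were open in all 3 GFI1-KI libraries, with KI1 and KI2 close together in both.

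**Figure D3:**
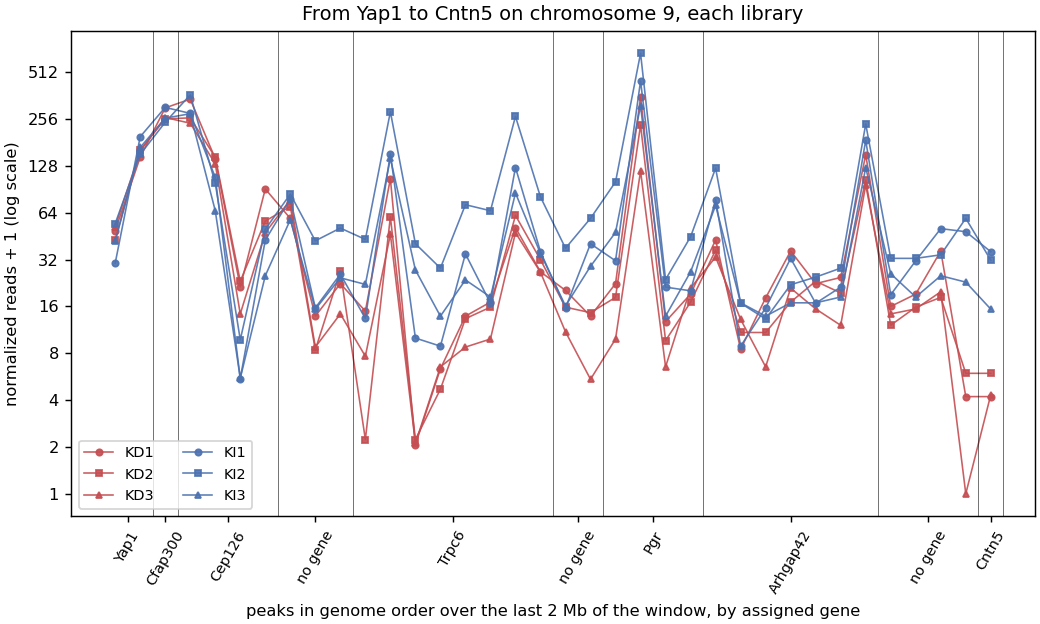
Normalized reads + 1 (log scale) of the 36 members in the last 2 Mb of the chromosome 9 window, in genome order and grouped by assigned gene, with 1 line per library (GFI1-KD red, GFI1-KI blue). The KI2 line lies above the other GFI1-KI lines at most Trpc6 and Pgr peaks, and the GFI1-KD lines are low at the Trpc6 peak with 1.07 to 1.23 normalized reads and at the all-or-none peak before Cntn5.

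The spread among libraries was wide in the distal stretch. The median SD of log2 values within a genotype was 0.53 for the 25 members from 8 to 9 Mb and 0.44 from 9 to 10 Mb, against 0.23 for all peaks. KI2 held the highest GFI1-KI value in 22 of the 25 members, against 34.8% of all peaks, and KD1 the highest GFI1-KD value in 13, against 36.5%. Summed over the 25, KD1 to KD3 held 1887.5, 1564.9 and 1343.8 normalized reads and KI1 to KI3 held 2113.4, 3074.7 and 1799.6, so KD1 exceeded KI3. KD1 and KI2 were also the libraries with 0 and 1 read in chromosome Y peaks, where the others had 499 to 865. With these 2 left out, 11 of the 25 were called, 9 of them lower. Without KI2 alone, 7 were called lower and 3 higher. With robust variance estimation in limma 5 were called lower and 2 higher.

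Leaving out KI2 or KI3 lowered the number of calls in the window and genome-wide. Of the 145 members, 25 were called without KI2 and 23 without KI3, against 38, and of all tested peaks 7245 and 6996, against 17872. The 4-fold count was 7 without KI1, against 4, and the all-or-none count was 2 without KI1 or without KI3, against 1.

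On chromosome 13, 5 of the 6 members called at 4-fold lay inside or beside Iqgap2 and Sv2c, 4 of them higher and 1 lower in GFI1-KD. The median SD of log2 values within a genotype was 0.21 from 95 to 96 Mb, against 0.23 for all peaks. Iqgap2 (chr13:95627177-95892280) had 63 tested peaks, of which 11 were called higher and 11 lower (34.9%), 14 at 2-fold or more. The other IQGAP genes, Iqgap1 and Iqgap3, had 24 tested peaks with 5 higher and 1 lower (25.0%), and none at 2-fold. Sv2c, a synaptic vesicle glycoprotein gene that lies next to it (chr13:95959443-96132577), had 29 peaks, 2 higher and 7 lower.

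The all-or-none member of chromosome 13 lay inside Iqgap2, chr13:95679747-95680121. It held 133.75, 149.33 and 140.82 normalized reads in KD1 to KD3, against 6.76, 4.38 and 3.78 in KI1 to KI3. All GFI1-KD libraries were open to the same degree and all GFI1-KI libraries were near the floor, with a mean of 141.3 ± 7.80 in GFI1-KD and 4.97 ± 1.57 in GFI1-KI (SD, n = 3 each) and a log2 fold change of 4.60 ± 0.24. The GFI1-KI mean was just under the limit of 5, so the peak met the definition narrowly. Over pooled reads the ratio of GFI1-KD to GFI1-KI was 29.5 (95% exact interval 17.9 to 52.2).

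Its neighbours differed in the same or the opposite direction within a few kilobases. At chr13:95679241-95679566, 73.83, 65.41 and 65.42 normalized reads in GFI1-KD stood above 15.76, 38.57 and 21.14 in GFI1-KI (1.50 ± 0.25). In the other direction, chr13:95671395-95671825 held 8.56, 11.11 and 7.76 in GFI1-KD and 31.53, 79.76 and 52.86 in GFI1-KI, again without overlap (-2.37 ± 0.30). Deeper in the gene, chr13:95785069-95785360 held 149.80, 117.25 and 155.23 in GFI1-KD and 22.52, 17.53 and 22.66 in GFI1-KI (2.69 ± 0.19). At the Iqgap2 promoter, chr13:95891569-95892792, the values were close, with 1777.25, 1769.80 and 1836.14 in GFI1-KD and 1824.02, 1947.57 and 1950.60 in GFI1-KI. That peak was not called (-0.09 ± 0.05).

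At Sv2c both 4-fold members were higher in GFI1-KD. The peak inside the gene, chr13:96010755-96011498, held 564.95, 514.65 and 541.08 normalized reads in KD1 to KD3, against 90.08, 119.20 and 104.97 in KI1 to KI3. The libraries of each genotype lay close together and far from the other genotype, at a log2 fold change of 2.36 ± 0.12. The other, 3.7 kb outside the gene at chr13:95955282-95955778, held 172.27, 139.46 and 162.99 in GFI1-KD and 41.66, 21.91 and 27.94 in GFI1-KI (2.38 ± 0.20). The 7 lower Sv2c peaks included its promoter, which fell by 0.69 ± 0.18, and ran to -1.27 ± 0.33. The call of that most reduced peak, chr13:95968139-95968330, was lost without KI2 and without KI3.

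**Figure D4:**
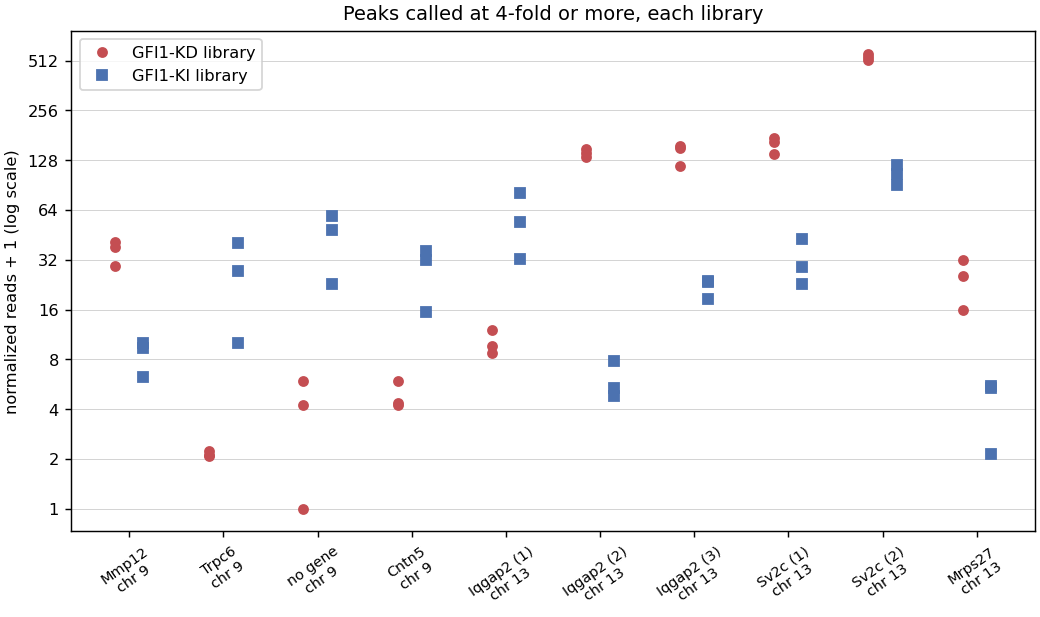
Normalized reads + 1 (log scale) of the 10 members called at 4-fold or more, by assigned gene in genome order, with GFI1-KD libraries as red circles and GFI1-KI libraries as blue squares. The genotypes do not overlap in any of the 10; the widest gap is at the second Iqgap2 peak, with 133.75 to 149.33 normalized reads in GFI1-KD against 3.78 to 6.76 in GFI1-KI.

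The protease-activated receptor genes beside and within Iqgap2 differed from each other. F2rl2, which encodes PAR3 and is nested inside Iqgap2, had both its peaks lower. Its promoter peak, chr13:95696737-95697250, held 138.03, 96.27 and 106.44 normalized reads in GFI1-KD and 220.68, 254.18 and 236.37 in GFI1-KI. All GFI1-KI libraries were higher (-1.07 ± 0.14), and the second peak fell by 1.03 ± 0.13. F2rl1, encoding PAR2, had 1 of 9 peaks higher and 2 lower, and F2r, encoding the thrombin receptor PAR1, had 0 of 8. The F2r promoter held 908.42, 761.48 and 800.54 in GFI1-KD and 808.42, 739.76 and 750.64 in GFI1-KI, which overlapped. Of the 19 receptor peaks in the window, 26.3% were called, and F2rl3 elsewhere had 0 of 3.

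Outside Iqgap2 and Sv2c, Mrps27 and Gcnt4 each had calls in 1 direction. Mrps27, a subunit gene of the mitochondrial ribosome, had 5 of 9 peaks higher in GFI1-KD and none lower. Its 4-fold member, chr13:99382417-99382661, held 24.61, 14.81 and 31.05 normalized reads in GFI1-KD and 1.13, 4.38 and 4.53 in GFI1-KI. These are low values, but no libraries overlapped (2.56 ± 0.46), and the pooled ratio of GFI1-KD to GFI1-KI was 6.65 (95% exact interval 3.55 to 13.6). A stronger peak nearby, chr13:99388043-99388391, rose by 1.42 ± 0.22. Gcnt4, a glycosyltransferase gene of O-glycan branching, had 4 of 11 peaks lower and all 11 below 0, its promoter among the called peaks at -0.29 ± 0.08. The Gcnt4 peaks were part of a run of 20 consecutive members over 229.5 kb below 0, with a median log2 fold change of -0.54.

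Arhgef28, a guanine-nucleotide exchange factor gene, resembled Iqgap2 in having both directions, with 5 of 56 peaks higher and 4 lower. The extremes were 33.17, 22.22 and 31.05 normalized reads in GFI1-KD against 6.76, 10.52 and 9.82 in GFI1-KI at chr13:98133011-98133212 (1.57 ± 0.31), and 62.06, 64.18 and 39.92 in GFI1-KD against 138.49, 164.78 and 142.73 in GFI1-KI at chr13:98009113-98009499 (-1.43 ± 0.18). Neither overlapped. Among 74 members with no protein-coding gene within 50 kb, 7 were called higher and 7 lower. The strongest increase among them, chr13:97539660-97540014, held 166.92, 150.57 and 211.78 normalized reads in GFI1-KD and 56.30, 44.70 and 64.94 in GFI1-KI (1.66 ± 0.17). A called decrease at chr13:97462062-97462333 was larger, with means of 8.2 normalized reads in GFI1-KD and 32.7 in GFI1-KI. The transcription factor gene Zfp366 had 0 of 28 peaks called.

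Counted by gene, 24 genes on chromosome 9 and 43 on chromosome 13 had a member. On chromosome 9, 5 had only higher calls, 10 only lower, 1 both and 8 none. On chromosome 13, 8 had only higher calls, 10 only lower, 6 both and 19 none. These counts hold for the deposited scaling and were not made over all genes, so no direction is read from them. Of the 41 members over a RefSeq promoter window, 2 were called higher, at Casp4 and Mmp8, and 8 lower, and the largest of these differences was that of Trpc6. With the deposited scaling, lower calls also outnumbered higher ones over all 11752 tested promoter peaks, with 127 higher and 1350 lower. Promoter peaks were not counted with the other scalings, under which the balance over all peaks turned.

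Calls on chromosome 13 numbered 53 without KI2 and 56 without KI3, against 91. From 95 to 96 Mb they numbered 28 without KI2 and 28 without KI3, against 40. The all-or-none peak of Iqgap2 missed the limit of 5 without KI2 or without KI3, since the GFI1-KI mean rose above it, and 2 peaks met the definition without KD2.

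The thresholds that defined the members and the 4-fold calls were as follows. On chromosome 9 the members nearest the mean of 10 stood at 10.07 (Mmp10) and the peaks nearest below it at 9.44 (Mmp12). On chromosome 13 they stood at 10 (Iqgap2, rounded) and 9.67. The last peak before the chromosome 9 window, at Gria4, differed by -0.13 and the first after it, at Cntn5, by 0.09, against -2.44 for the last inside. The last peak before the chromosome 13 window, at Wdr41, differed by -0.12 and the first inside, also at Wdr41, by -1.51. Just short of 4-fold on the log2(value + 1) scale were called peaks with no gene near, with means of 10.3 normalized reads in GFI1-KD and 41.7 in GFI1-KI on chromosome 9, and of 8.2 in GFI1-KD and 32.7 in GFI1-KI on chromosome 13, and just past it were those of Mmp12 and Sv2c.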

How the data were processed

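The deposited values are a coverage signal, normalized reads in each consensus peak. Within a library, 100.0% of values were whole multiples of 1 step at a tolerance of 0.01 reads, which gave the reads back. The build was mm10 and the tools included BWA, MACS2 and DiffBind, per the submitters' processing notes. How peaks were merged, and any shift of reads for the transposase, was not given in the sources used here. Columns named WT were taken as GFI1-KI, since the series title calls the other genotype wild type and the numbers match. Chromosome codes 1 to 21 were read in alphabetical order.

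The 170733 peaks with a mean of at least 10 were fitted with limma 3.58.1 (R 4.3.3, variance trend, no block) on log2(value + 1), adjusted by Benjamini-Hochberg over all of them. The fit was tested on simulated data. All simulated peaks shared the same extra spread and no library was made uneven, so this cannot speak for calls where libraries scattered widely. Each peak took the RefSeq protein-coding gene it overlapped (the shortest, if several) or the nearest within 50 kb, so a peak need not act on its gene. Exons, introns and overlapping or antisense transcripts were not told apart, and how the file counts the first base of a peak is not stated. Promoter windows matched 58 of the 67 genes. The members and gene lists were chosen with earlier results of these data known. Peaks given by value were, per window, the 8 largest increases and 8 largest decreases among non-overlapping members (1 per gene), plus 4-fold, all-or-none, promoter and neighbouring peaks added after their values were seen. Of the 32 peaks of that rule, 27 were called, and some of them are given only in the counts. Same-numbered libraries of the genotypes were taken as unpaired. Intervals are exact (Clopper-Pearson, 95%) and cover counting error only. Alternatives were other scalings, pseudocounts, filters, robust variance estimation, a replicate block, leaving out each library, and count tests on the recovered reads by DESeq2 1.42.0 and by edgeR 4.0.16. A term for libraries without chromosome Y reads, and a fit of the others alone, were added after seeing the data. Tables and figures were made in Python 3.11.15 (pandas 2.3.3, numpy 2.4.6, matplotlib 3.10.9).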

Additional observations from a re-analysis of the deposited data

How the results depend on the processing

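All 32 peaks named by rule kept their direction in every alternative run that held them, and only 6 were in the run with means of at least 50. The rule took peaks whose genotypes did not overlap, so leaving out a library could not reverse them, and no support is drawn from this. Of the 27 called among them, 18 kept their call in each run that gave an adjusted p. DESeq2 gave none for 10 of the 32, among them the 4-fold peaks of Trpc6, Cntn5 and Mrps27. Leaving out 1 library each gave 6996 to 22129 calls over all peaks, 23 to 48 on chromosome 9 and 53 to 103 on chromosome 13, with 3 to 7 calls of 4-fold on chromosome 9, 1 to 2 all-or-none peaks there and 0 to 2 on chromosome 13. With peaks of mean 50 or more, chromosome 9 had 21 calls and 0 of 4-fold, and a pseudocount of 5 left 2 of 4-fold. DESeq2 called 10819 peaks in all and 2 of 4-fold on chromosome 9. The libraries with chromosome Y reads alone gave 8892 calls in all, 60 on chromosome 13 and 0 all-or-none peaks there. With a limit of 3 in the lower genotype, 0 peaks were all-or-none on chromosome 13, and with a limit of 10 there were 2 on chromosome 9 and 4 on chromosome 13. The cause of these shifts was not tested. The 4-fold count on chromosome 13 ran from 4 to 8. Same-numbered libraries correlated at -0.02, -0.04 and 0.06 after removal of group means. With 3 libraries per genotype this cannot settle whether the numbers mark pairs. The replicate block gave 40 calls on chromosome 9, 98 on chromosome 13 and 18940 in all. Other scalings moved the median of all peaks from -0.05 to -0.01.
Peaks near the mean of 10 rest on few reads, where 3 reads were worth 2.27 to 3.70 normalized reads by library.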

Other observations

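In the 2 bins on either side of the chromosome 13 window, the share called was above that of all peaks on the proximal side only. Farther out this contrast did not hold. On the proximal side 6.86% were called from 91 to 92 Mb and 9.59% from 92 to 93 Mb. On the distal side 16.7% were called from 103 to 104 Mb and 16.7% from 105 to 106 Mb. In the 2 bins before the window, 14 of 82 tested peaks were called from 93 to 94 Mb (17.1%), 2 of them at 4-fold. From 94 to 95 Mb, 24 of 141 were called (17.0%), 18 higher and 6 lower. Past the distal edge, 10.2% of 98 peaks from 100 to 101 Mb and 9.18% of 98 from 101 to 102 Mb were called, none at 4-fold, against 10.5% of all peaks. There lie the Naip genes, sensors of bacterial flagellin and secretion systems. Naip1 and Naip2 had 2 of 8 peaks higher each and none lower, Naip5 had 1 of 2 lower, and Naip6 had 0 of 2. The Naip genes are closely similar copies, so the authors' counting could split their reads. Beside the chromosome 9 window no bin from 3 to 5 Mb or from 10 to 20 Mb held a 4-fold call.

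At other genes of the windows, a peak near Foxd1, a forkhead transcription factor gene, rose to 674.09, 459.11 and 503.39 normalized reads in GFI1-KD, against 295.00, 283.98 and 282.43 in GFI1-KI, with KD1 apart from the other GFI1-KD libraries (0.90 ± 0.11). Cep126, a centrosomal gene, had 2 of 4 peaks higher, both over 45 kb from the gene. The call of chr9:8180031-8180254 was lost without KD1, without KD2 and without KI3. Peaks of the windows left out for a low mean had means down to 3.81 on chromosome 9 and 2.55 on chromosome 13, and no single library above 26.3 and 16.0.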
